A study of Homo sapiens with 18 samples.

Results

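Genes of serine synthesis and of the stress response driven by the transcription factor ATF4, 10 in all, were followed in 2 human acute myeloid leukaemia cell lines. They were chosen by symbol from 19068 genes listed for at least 1 line, and all 10 were listed and tested in both lines. They are ATF4 (NCBI Gene 468), the serine synthesis enzymes PHGDH (26227), PSAT1 (29968) and PSPH (5723), and the mitochondrial one-carbon enzymes SHMT2 (6472) and MTHFD2 (10797). The others are asparagine synthetase ASNS (440) and the stress genes CHAC1 (79094), DDIT3 (1649) and TRIB3 (57761). HL-60 is a promyelocytic line and MOLM-13 a monocytic line. Each was kept for 48 h with the solvent dimethyl sulfoxide (DMSO), with decitabine (DAC), a cytidine analogue that traps DNA methyltransferases, or with the compound NTX-301. This gave 6 groups with 3 replicates per group (18 samples). The labels give 30 nM (HL-60) or 15 nM, used in MOLM-13, without saying clearly whether NTX-301 shared the concentration of DAC. No label says that replicates came from separate cultures, so p-values measure the spread between these samples, which may be technical.

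When the initiation factor eIF2 is phosphorylated, by kinases that sense amino acid shortage, endoplasmic reticulum stress, haem shortage or viral RNA, general translation slows while the ATF4 mRNA is translated better. ATF4 is a basic leucine zipper factor that binds C/EBP-ATF response elements and raises genes of amino acid synthesis, amino acid uptake and stress signalling. PHGDH, PSAT1 and PSPH turn a glycolytic intermediate into serine, and SHMT2 and MTHFD2 pass carbon from serine into the mitochondrial folate pool, which feeds nucleotide synthesis in dividing leukaemia cells. Since ATF4 is set largely by translation, its mRNA does not report the amount of its protein.

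The promoters of ASNS, CHAC1 and PSAT1 are shown because those of ASNS and CHAC1 hold letters that match the core of the C/EBP-ATF response element, while that of PSAT1, which fell with NTX-301 in both lines, does not. They are the 250 bases before a RefSeq start site on GRCh38.p14, on the strand of the gene: chr7:97872409-97872658 (minus) for ASNS, chr15:40953221-40953470 (plus) for CHAC1 and chr9:78296875-78297124 (plus) for PSAT1. Capitals mark the core of the response element, TGATGNAA, on either strand.
ASNS: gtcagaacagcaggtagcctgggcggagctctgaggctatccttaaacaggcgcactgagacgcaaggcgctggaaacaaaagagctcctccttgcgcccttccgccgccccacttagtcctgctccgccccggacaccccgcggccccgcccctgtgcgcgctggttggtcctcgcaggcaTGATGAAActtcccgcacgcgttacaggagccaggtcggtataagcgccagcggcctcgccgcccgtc
CHAC1: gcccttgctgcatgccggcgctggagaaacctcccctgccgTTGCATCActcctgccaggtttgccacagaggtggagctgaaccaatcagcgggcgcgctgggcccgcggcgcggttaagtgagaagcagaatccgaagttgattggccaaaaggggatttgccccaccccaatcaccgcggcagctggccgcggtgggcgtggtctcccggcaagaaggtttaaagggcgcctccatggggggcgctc
PSAT1: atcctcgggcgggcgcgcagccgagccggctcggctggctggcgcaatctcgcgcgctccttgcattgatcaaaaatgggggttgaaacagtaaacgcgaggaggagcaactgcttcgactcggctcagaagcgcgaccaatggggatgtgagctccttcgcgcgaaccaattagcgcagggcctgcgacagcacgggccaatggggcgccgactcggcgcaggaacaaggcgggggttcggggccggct
The match in ASNS begins 68 bases before the start site, and that in CHAC1 begins 209 bases before it, on the opposite strand (TTGCATCA). RefSeq windows were matched for 8 of the 10 genes, PSPH and SHMT2 being the exceptions. Of the 8, 2 held the core in at least 1 window, against 3.89% of 27305 genes with a window of this length. Some genes had more than 1 window, and the other window of ASNS, chr7:97872166-97872415 (minus), held no match. The palindromic ATF/CRE core TGACGTCA, searched the same way, was in 0 of the 8 and in 2.03% of genes, and so overlapped no match shown. A match is a description of these letters only.

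The deposited values are on a log2 scale, normalized in each line apart. Changes are therefore given as log2 differences within a line. The method is not named. If it draws values towards each gene's mean, as a regularized log does and as the low values look, the log2 differences and linear percents printed here are smaller than the true ones. Levels are not compared between genes, since the values are not per length, or tested between lines. The read depth of the samples is unknown, and genes with low values were called less often. CHAC1 in MOLM-13, at 6.28 ± 0.0932 in DMSO (SD, n = 3), lies among genes between 6 and 7, of which 29.8% were called with NTX-301, against 69.4% of genes between 12 and 14. All 5 promyelocyte markers and 5 of 6 monocyte markers were listed in both lines. Of 4 markers of KMT2A-rearranged leukaemia, HOXA9 and MEIS1 were listed in MOLM-13 alone, and HOXA10 and FLT3 in both lines. Of 15 markers of T, B, erythroid, fibroblast and epithelial cells, 2 were listed in HL-60 and 6 in MOLM-13, the highest being KRT18 at 9.33. In the third DAC replicate of MOLM-13 the 10 highest genes held 9.49% of the linear sum, against 10.8% to 11.8% in the other MOLM-13 samples. Without this sample, 8 members in place of 9 were called lower with DAC in MOLM-13, and 3 in place of 5 between the drugs. Less RNA per cell and fewer cells of a type cannot be told apart in bulk RNA.

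In MOLM-13 nearly the whole group fell with either drug. With DAC 9 of the 10 genes were lower and 0 higher, where 21.2% of all 17475 genes tested were called lower and 15.4% higher (limma, adjusted p under 0.05). Among genes with a mean value of at least 10, 39.9% were called lower. With NTX-301, 8 were lower and 0 higher, against 24.8% and 20.3% of all genes (45.9% lower among those of at least 10). The median difference of the 10 genes was −0.26 under DAC, and that under NTX-301 −0.40, against 0.0013 and 0.0034 over all genes. CHAC1 was not called with either drug, and DDIT3 was not called with NTX-301. Centring each sample on its median left the members' counts at 9 and 8 and moved the shares of all genes called lower and higher to 32.8% and 11.2% with DAC, and to 33.0% and 15.7% with NTX-301. In HL-60 with NTX-301, 7 of 10 were lower and 0 higher, where 19.2% of 17046 genes were called lower and 18.3% higher (33.7% lower among those of at least 10). After centring these shares were 31.7% and 13.6%, and PSPH joined as an eighth member called lower. With DAC, 3 were lower and 1 higher there, against 12.6% and 11.6% of all genes (21.7% and 13.9% of those of at least 10). The members' median in HL-60 was −0.18 with NTX-301 and −0.026 with DAC. Both drugs were set against the same DMSO samples, so their values share that error.

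Markers of promyelocytes and monocytes moved in the same samples. Their counts are to be read against the shares of all genes called. In MOLM-13 these were 15.4% higher and 21.2% lower with DAC, and 20.3% and 24.8% with NTX-301. In HL-60 they were 11.6% and 12.6% with DAC, and 18.3% and 19.2% with NTX-301. In MOLM-13, 4 of 5 monocyte markers tested rose with each drug: CD86 by 0.86 (DAC) and 0.74 (NTX-301), CD68 by 0.68 and 0.46, CSF1R by 0.51 and 0.39, and LYZ by 0.78 and 0.12 (limma adjusted p from 1.5e-07 to 0.0165). FCGR1A fell by 0.14 with NTX-301. Promyelocyte markers in MOLM-13 were higher in 3 of 5 and lower in 0 with DAC, MPO by 0.72 (limma adjusted p 4.07e-08). After centring 3 were higher and 1 lower with DAC, CTSG (−0.10). Under NTX-301, 2 of these 5 were higher and 1 lower (1 and 1 after centring). In MOLM-13 the log2 of the summed monocyte markers ran from 16.54 to 16.61 with DMSO. It lay between 17.30 and 17.41 under DAC, and between 16.68 and 16.76 under NTX-301. This sum mainly follows LYZ, at 16.5 with DMSO, the next being CD68 at 11.6. In HL-60 all 5 promyelocyte markers fell with NTX-301, PRTN3 by 0.76 and ELANE by 0.48. Their summed level ran from 18.62 to 18.65 with NTX-301, against 19.00 to 19.09 with DMSO and 18.99 with DAC. That sum mainly follows MPO, at 18.7 with DMSO, the next being PRTN3 at 16.1. Promyelocyte markers in HL-60 with DAC were higher in 2 of 5 and lower in 1. Monocyte markers there were higher in 3 of 5 with each drug, and LYZ fell by 0.072 with NTX-301. CD14 was not listed in either line. The 4 markers of KMT2A-rearranged leukaemia were all lower with DAC in MOLM-13: FLT3 (−0.29), HOXA10 (−0.19), MEIS1 (−0.16) and HOXA9 (−0.15). With NTX-301 in MOLM-13, 2 of these 4 were lower and 1 higher (3 and 0 after centring). In HL-60 2 of them were tested, and 1 was lower with DAC and 0 with NTX-301 (0 and 1 after centring). The part of these moves in the results on the 10 genes was not tested.

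**Figure D1:**
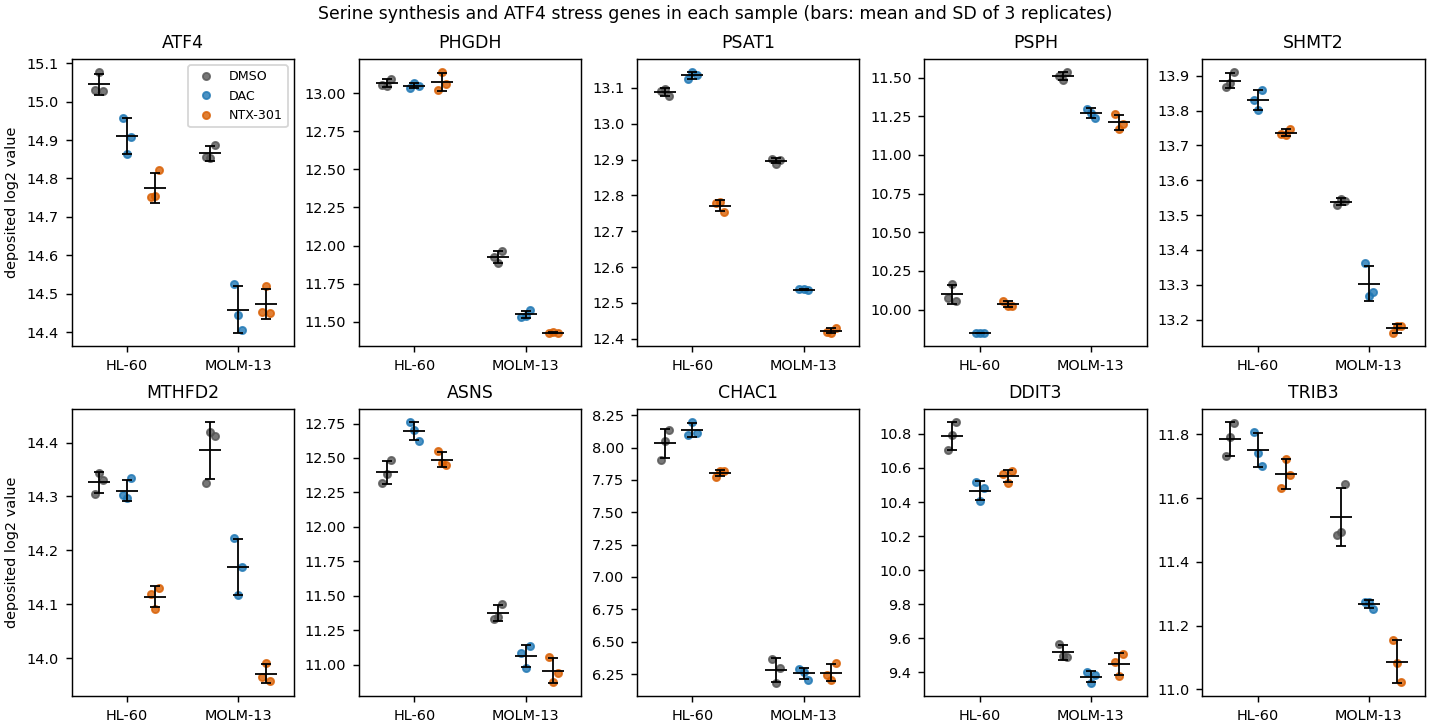
Deposited log2 values of the 10 genes in each of the 18 samples; each panel is 1 gene with its own vertical axis, points are replicates coloured by treatment, and black bars give the mean and SD of 3 replicates. In MOLM-13 the drug-treated samples lie below the DMSO samples for ATF4, PHGDH, PSAT1, PSPH, SHMT2, MTHFD2, ASNS and TRIB3, while in HL-60 PHGDH overlaps between all 3 groups.

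**Figure D2:**
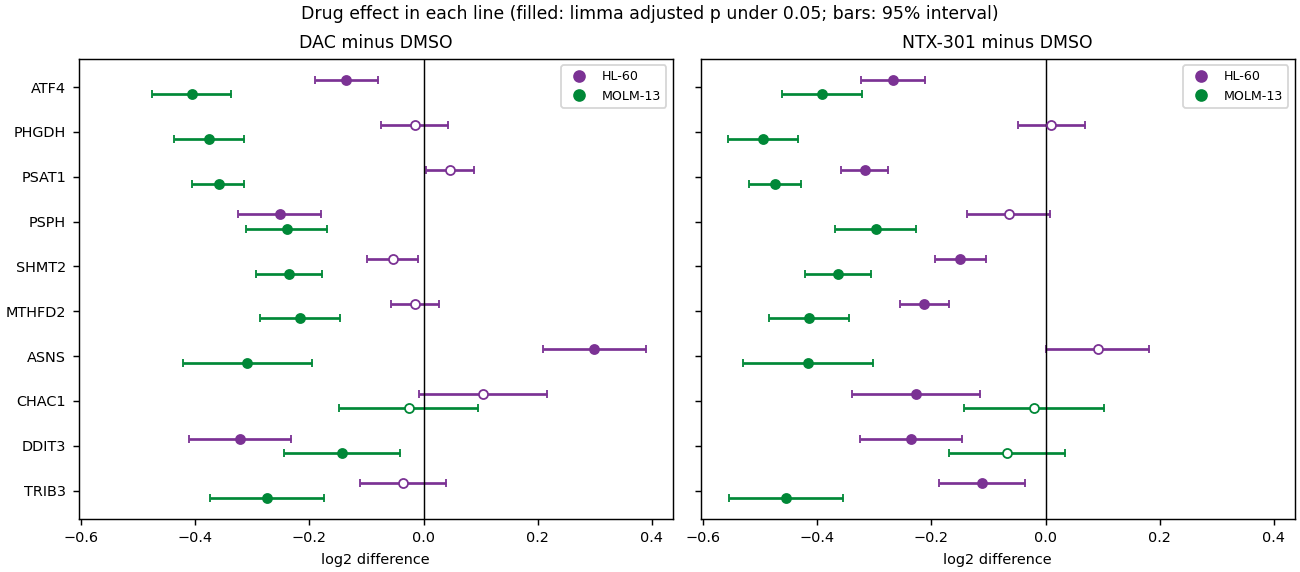
Log2 difference of each gene against DMSO with DAC (left) and NTX-301 (right), in HL-60 (purple) and MOLM-13 (green); bars are 95% confidence intervals from limma, and filled points have an adjusted p under 0.05. ASNS with DAC stands on opposite sides of 0 in the 2 lines, at 0.30 in HL-60 and −0.31 in MOLM-13.

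ATF4 itself was lower with both drugs in both lines. In HL-60 its values were 15.03, 15.08 and 15.03 with DMSO, 14.96, 14.86 and 14.91 with DAC, and 14.75, 14.75 and 14.82 with NTX-301. The 3 groups did not overlap, with NTX-301 lowest. Against DMSO, the DAC difference was −0.14 (SE 0.026, limma adjusted p 0.00196) and the NTX-301 difference −0.27 (SE 0.026, adjusted p 2.16e-06). In MOLM-13 its values were 14.85, 14.85 and 14.89 with DMSO, 14.53, 14.45 and 14.40 with DAC, and 14.45, 14.52 and 14.45 with NTX-301. Every drug-treated sample lay below every DMSO sample there, and the 2 drug groups overlapped. The difference was −0.41 with DAC, a linear change of −24.6% (SE 0.032, adjusted p 4.26e-06), and −0.39 with NTX-301, a linear change of −23.8% (SE 0.032, adjusted p 3.25e-06). Of the genes tested, 0.395% had a lower difference with DAC in MOLM-13. ATF4P3 and ATF4P4, pseudogene copies by name, were listed in both lines at values between 4.43 and 6.74 in DMSO, so reads may be split between copies. ATF4P3 fell by 0.12 with DAC in MOLM-13 (limma adjusted p 0.0277), and no other of these values was called.

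The first enzyme of serine synthesis, PHGDH, separated the lines. In HL-60 its values were 13.05, 13.04 and 13.09 with DMSO, 13.04, 13.07 and 13.04 with DAC, and 13.02, 13.14 and 13.06 with NTX-301. All 3 groups overlapped, and neither difference was called, at −0.016 with DAC (95% interval −0.0743 to 0.0432) and 0.010 with NTX-301 (−0.0484 to 0.0691). After centring, the second value was −0.018. In MOLM-13 its values were 11.93, 11.88 and 11.97 with DMSO, 11.53, 11.54 and 11.57 with DAC, and 11.43, 11.43 and 11.43 with NTX-301. DMSO was highest, DAC in between and NTX-301 lowest, with no overlap. PHGDH fell by 0.38 under DAC (SE 0.028, limma adjusted p 3.15e-06), and the NTX-301 difference was −0.50 (SE 0.028, adjusted p 3.37e-07). With NTX-301 0.183% of genes had a lower difference.

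PSAT1, the aminotransferase of the second step, had replicate SDs of 0.0024 to 0.016 in the 6 groups. In HL-60 its values were 13.09, 13.10 and 13.08 with DMSO, 13.13, 13.14 and 13.13 with DAC, and 12.78, 12.78 and 12.75 with NTX-301. DAC lay slightly above DMSO without overlap, a difference of 0.047 that was not called (limma adjusted p 0.0991), though it was called with quantile-normalized values (0.054) and without the mean-variance trend. NTX-301 lay below both groups, and PSAT1 fell by 0.32 with it (SE 0.019, adjusted p 2.76e-08). In MOLM-13 its values were 12.90, 12.89 and 12.90 with DMSO, 12.54, 12.54 and 12.53 with DAC, and 12.42, 12.42 and 12.43 with NTX-301. The order was DMSO, DAC, NTX-301 with no overlap, and PSAT1 fell by 0.36 and 0.47 (SE 0.021 for both, limma adjusted p 4.74e-07 and 8.03e-08).

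PSPH, the phosphatase of the last step, fell with DAC in HL-60, where PSAT1 did not. Its values there were 10.07, 10.17 and 10.05 with DMSO, 9.85, 9.85 and 9.85 with DAC, and 10.06, 10.02 and 10.02 with NTX-301. DAC was lowest and did not overlap with DMSO, whereas NTX-301 and DMSO overlapped. PSPH fell by 0.25 under DAC (SE 0.034, limma adjusted p 0.000109), and its difference with NTX-301 was −0.065 (95% interval −0.137 to 0.00766, adjusted p 0.154), called after centring at −0.093. In MOLM-13 its values were 11.51, 11.48 and 11.54 with DMSO, 11.30, 11.27 and 11.24 with DAC, and 11.27, 11.17 and 11.20 with NTX-301. Both drug groups lay below DMSO, and PSPH fell by 0.24 (DAC) and by 0.30 (NTX-301, limma adjusted p 0.000166 and 2.33e-05). The pseudogene PSPHP1 was listed in MOLM-13 alone, with means of 10.66 (DMSO), 10.39 (DAC) and 10.30 (NTX-301), and it fell too, by 0.27 and 0.36 (limma adjusted p 0.00469 and 0.000519). Reads may be split between PSPH and this copy, so the MOLM-13 values of PSPH are uncertain.

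The mitochondrial enzymes SHMT2, which moves a carbon from serine to folate, and MTHFD2, which oxidizes the folate-bound carbon, fell together with NTX-301 in both lines. MTHFD2 in HL-60 had values of 14.30, 14.34 and 14.33 with DMSO, 14.30, 14.30 and 14.33 with DAC, and 14.12, 14.09 and 14.13 with NTX-301. DAC and DMSO overlapped (difference −0.015, 95% interval −0.0572 to 0.0271), and the NTX-301 samples lay apart below them. In MOLM-13 MTHFD2 had values of 14.33, 14.42 and 14.41 with DMSO, 14.22, 14.12 and 14.17 with DAC, and 13.97, 13.99 and 13.96 with NTX-301. The 3 groups stood in the order DMSO, DAC, NTX-301 without overlap. MTHFD2 fell with NTX-301 by 0.21 in HL-60 (SE 0.02, limma adjusted p 1.34e-06) and by 0.41 in MOLM-13 (SE 0.032, adjusted p 2.32e-06), and with DAC by 0.22 in MOLM-13 (adjusted p 0.000297). SHMT2 in HL-60 had values of 13.87, 13.88 and 13.91 with DMSO, 13.83, 13.80 and 13.86 with DAC, and 13.73, 13.73 and 13.75 with NTX-301. The 3 groups did not overlap, and NTX-301 was lowest. In MOLM-13 SHMT2 had values of 13.53, 13.55 and 13.54 with DMSO, 13.36, 13.27 and 13.28 with DAC, and 13.16, 13.18 and 13.18 with NTX-301, again without overlap and in the order DMSO, DAC, NTX-301. It fell with NTX-301 by 0.15 in HL-60 and 0.36 in MOLM-13 (limma adjusted p 5.71e-05 and 1.62e-06), and with DAC by 0.24 in MOLM-13 (adjusted p 4.71e-05). With DAC in HL-60 the SHMT2 difference was −0.054 (adjusted p 0.0718), called without DAC replicate 3 at −0.069. SLC4A5, whose exons overlap those of MTHFD2 on the opposite strand, was listed at 4.19 in HL-60 and 4.71 in MOLM-13 with DMSO and was not called. NDUFA4L2, which overlaps SHMT2 in the same way, stood at 4.93 and 5.87 with DMSO and fell with NTX-301 by 0.088 in HL-60 and 0.19 in MOLM-13.

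ASNS, which makes asparagine from aspartate and glutamine, was the one member called higher than DMSO, PSAT1 with DAC in HL-60 being so under the 2 alternatives named above. In HL-60 its values were 12.32, 12.38 and 12.48 with DMSO, 12.76, 12.70 and 12.62 with DAC, and 12.55, 12.47 and 12.45 with NTX-301. The DAC samples lay above the DMSO samples without overlap, and the NTX-301 samples overlapped with DMSO. ASNS rose by 0.30 under DAC (SE 0.042, limma adjusted p 0.000165), a linear increase of 23.0%, and 98.4% of genes had a lower difference. With NTX-301 the difference was 0.091 (adjusted p 0.108), which without DMSO replicate 3 was 0.14 and called. In MOLM-13 the values were 11.33, 11.35 and 11.44 with DMSO, 11.09, 10.97 and 11.13 with DAC, and 11.05, 10.88 and 10.94 with NTX-301. Both drug groups lay below DMSO there and overlapped with each other. The ASNS difference was −0.31 with DAC and −0.42 with NTX-301 (SE 0.052 for both, limma adjusted p 0.000704 and 5.99e-05).

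The 3 stress genes were all called lower with NTX-301 in HL-60. In no other comparison against DMSO were all 3 called. CHAC1, an enzyme that degrades glutathione, had values in HL-60 of 7.91, 8.05 and 8.13 with DMSO, 8.09, 8.20 and 8.12 with DAC, and 7.78, 7.82 and 7.82 with NTX-301. The NTX-301 samples lay below the others, and CHAC1 fell by 0.23 (SE 0.052, limma adjusted p 0.00334). The DAC and DMSO samples overlapped, with a difference of 0.10 (95% interval −0.00773 to 0.217). In MOLM-13 the values were 6.37, 6.18 and 6.30 with DMSO, 6.29, 6.27 and 6.21 with DAC, and 6.24, 6.20 and 6.34 with NTX-301. All groups overlapped, and the differences were −0.026 for DAC (95% interval −0.149 to 0.0962) and −0.021 for NTX-301 (−0.143 to 0.102).

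DDIT3, which encodes the stress factor CHOP, fell with both drugs in HL-60. Its values there were 10.70, 10.79 and 10.87 with DMSO, 10.52, 10.40 and 10.48 with DAC, and 10.56, 10.51 and 10.58 with NTX-301. Both drug groups lay below DMSO, at differences of −0.32 for DAC (SE 0.042, limma adjusted p 8.56e-05) and −0.24 for NTX-301 (SE 0.042, adjusted p 0.000455). In MOLM-13 the values were 9.566, 9.498 and 9.488 with DMSO, 9.402, 9.338 and 9.383 with DAC, and 9.463, 9.379 and 9.507 with NTX-301. The fall with DAC there was 0.14 (SE 0.046, adjusted p 0.0304), and the call was lost without DMSO replicate 1 (−0.12), DMSO replicate 2 (−0.15), DAC replicate 2 (−0.125) or DAC replicate 3 (−0.15). With NTX-301 DDIT3 overlapped with DMSO in MOLM-13 (−0.068, adjusted p 0.26). Exons of DDIT3 overlap on the opposite strand with MARS1, a transfer RNA synthetase gene listed at 13.80 in HL-60 and 13.57 in MOLM-13 with DMSO (not per length). MARS1 fell in MOLM-13 by 0.32 (DAC) and 0.44 (NTX-301), and in HL-60 by 0.20 (NTX-301 alone). MBD6, another overlapping gene on that strand, rose in MOLM-13 by 0.36 (DAC) and 0.38 (NTX-301), and in HL-60 by 0.18 (NTX-301). The library kit marks strand, but whether counting used it is not given in the sources used here, so the DDIT3 values are uncertain.

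TRIB3, a pseudokinase induced by ATF4 and CHOP, fell with both drugs in MOLM-13. Its values there were 11.48, 11.49 and 11.65 with DMSO, 11.27, 11.27 and 11.25 with DAC, and 11.16, 11.08 and 11.02 with NTX-301. The groups stood apart in the order DMSO, DAC, NTX-301, and TRIB3 fell by 0.27 (DAC) and 0.45 (NTX-301; SE 0.045 for both, limma adjusted p 0.000644 and 1.24e-05). In HL-60 its values were 11.73, 11.79 and 11.84 with DMSO, 11.81, 11.74 and 11.70 with DAC, and 11.63, 11.72 and 11.67 with NTX-301. NTX-301 lay just below DMSO and overlapped with DAC. TRIB3 fell there by 0.11 with NTX-301 (limma adjusted p 0.0209). The call did not hold with quantile-normalized values (−0.096) or without DMSO replicate 2 (−0.11), DMSO replicate 3 (−0.087), NTX-301 replicate 1 (−0.089) or NTX-301 replicate 3 (−0.11). With DAC in HL-60 its difference was −0.036 (adjusted p 0.502).

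NTX-301 and DAC were then compared directly, 1 pair of drugs in each line. Whether both had the same concentration is not clear from the labels, so drug and dose cannot be told apart in either line. In HL-60, 6 of the 10 genes had a lower value with NTX-301 than DAC and 1 was higher. Of all genes, 15.0% and 15.4% were called (28.5% and 10.7% after centring), and 25.3% and 19.7% of those with a mean value of at least 10. Among the members PSAT1 differed most, at −0.36 (SE 0.019, limma adjusted p 1.46e-08), and CHAC1 stood at −0.33 (SE 0.052, adjusted p 0.000273). ASNS (−0.21), MTHFD2 (−0.20), ATF4 (−0.13) and SHMT2 (−0.095) were also lower, and PSPH was the one gene higher with NTX-301 (0.19, SE 0.034, adjusted p 0.000769). PHGDH (0.026, 95% interval −0.0328 to 0.0847), DDIT3 (0.086, −0.00379 to 0.175) and TRIB3 (−0.076, −0.151 to −0.000924) were not called, TRIB3 being called after centring (−0.11).

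In MOLM-13, 5 of the 10 had a lower value with NTX-301 than DAC and 0 a higher one, against 4.41% and 3.01% of all genes (7.93% and 4.31% of those with a mean value of at least 10). MTHFD2 (−0.20, SE 0.032, limma adjusted p 0.00499), TRIB3 (−0.18, adjusted p 0.0362), SHMT2 (−0.13, adjusted p 0.0154), PHGDH (−0.12, adjusted p 0.0265) and PSAT1 (−0.12, adjusted p 0.00826) made up the 5. This count was 3 without DAC replicate 2, 3 without DAC replicate 3, 2 without NTX-301 replicate 2 and 2 without NTX-301 replicate 3. MTHFD2 and PSAT1 kept their calls in all 17 alternatives, while TRIB3 lost its call in 7, PHGDH in 6 and SHMT2 in 2. ATF4 (0.015, 95% interval −0.0546 to 0.0849), ASNS (−0.11, −0.221 to 0.00633), PSPH (−0.058, −0.129 to 0.0134), CHAC1 (0.0058, −0.117 to 0.128) and DDIT3 (0.075, −0.0261 to 0.177) were not called. These intervals do not show that the drugs act alike on them.

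**Figure D3:**
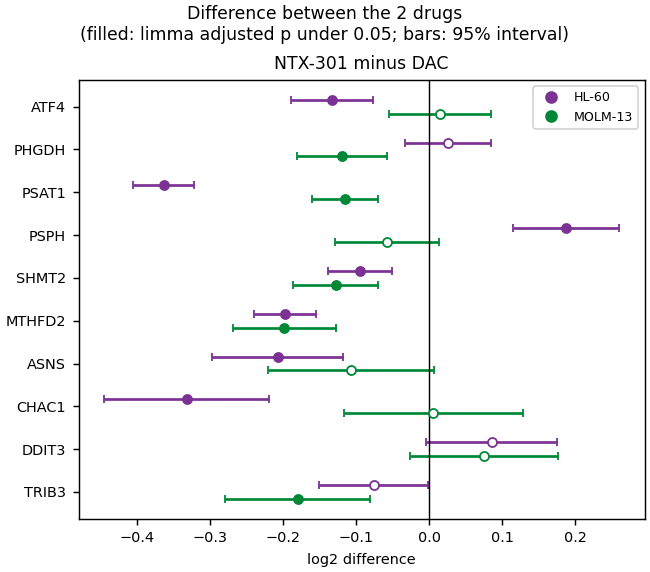
Log2 difference between NTX-301 and DAC for each gene in HL-60 (purple) and MOLM-13 (green), with 95% confidence intervals from limma; filled points have an adjusted p under 0.05. MTHFD2 lies at −0.20 in both lines, and PSPH in HL-60 is the one filled point above 0, at 0.19.

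The 2 lines were set against each other by subtracting each gene's drug effect in HL-60 from its effect in MOLM-13, in a joint fit. With DAC the effect was lower in MOLM-13 for 7 of the 10 genes and higher for DDIT3 alone (0.18, limma adjusted p 0.0382, not called after centring at 0.14), where 17.9% and 12.1% of 15474 genes were called (28.3% and 8.78% after centring). ASNS had the lowest value, −0.61 (SE 0.073, limma adjusted p 4.47e-06), followed by PSAT1 (−0.41), PHGDH (−0.36), ATF4 (−0.27), TRIB3 (−0.24), MTHFD2 (−0.20) and SHMT2 (−0.18). PSPH did not differ by this test (0.012, 95% interval −0.0845 to 0.109). With NTX-301 the effect was lower in MOLM-13 for 8 genes and higher for CHAC1 and DDIT3. Of all genes, 22.4% and 17.6% were called (35.5% and 17.5% of those with a mean value of at least 10 in both lines). CHAC1 and DDIT3 did not rise in MOLM-13 (−0.021 and −0.068 against DMSO, not called) but fell in HL-60 (−0.23 and −0.24). CHAC1 has low values in MOLM-13, where fewer genes were called. ASNS and PHGDH both differed between the lines by −0.51 (limma adjusted p 1.84e-05 and 8.66e-09). TRIB3, PSPH, SHMT2, MTHFD2, PSAT1 and ATF4 lay between −0.34 and −0.12. Of these 10 calls, 3 did not hold with quantile-normalized values or in part of the 18 fits that each left out 1 sample: ATF4 (−0.027, lost in 6), CHAC1 (0.19, lost in 12) and DDIT3 (0.11, lost in 8). The DDIT3 value with DAC was lost in 8. The lines also differ in the stated concentration, so line and dose cannot be told apart.

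Lists of related genes, 6 in all, place the group in its pathway. They were chosen with earlier results of these data known and are described by counts, which are to be read against the shares of all genes. With DAC these were 12.6% lower and 11.6% higher in HL-60. MOLM-13 had 21.2% and 15.4%. With NTX-301 they were 19.2% and 18.3% in HL-60. MOLM-13 had 24.8% and 20.3%. Among genes with a mean value of at least 10, the shares called lower were 21.7% and 39.9% with DAC and 33.7% and 45.9% with NTX-301, in HL-60 and MOLM-13 in turn. Amino acid transporters, several of them ATF4 targets, fell in MOLM-13: 7 of 9 tested were lower with DAC and 8 of 9 with NTX-301, with 0 higher and medians of −0.18 and −0.24. SLC7A5, the large neutral amino acid carrier, fell there by 0.41 with NTX-301 (SE 0.033, limma adjusted p 2.73e-06), and SLC38A2, a glutamine carrier, fell by 0.30 with DAC. In HL-60, 7 of 10 transporters were lower with NTX-301 (9 after centring) and 1 higher, and with DAC 4 were lower and 3 higher (medians −0.22 and 0.017). SLC7A11, the cystine carrier, rose by 0.22 with DAC in HL-60 (adjusted p 0.000168).

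Other ATF4 target genes were also counted by line. In MOLM-13, 8 of 11 tested were lower and 2 higher with either drug (median −0.16 for both). GPT2, the mitochondrial alanine aminotransferase, fell by 0.57 with DAC and 0.59 with NTX-301 (SE 0.033 for both, limma adjusted p 5.37e-07 and 3.12e-07). The 2 that rose were SESN2, by 0.32 and 0.37, and DDIT4, by 0.48 and 0.49. Both encode inhibitors of mTORC1 signalling and are also known as p53 targets. SESN2 was named after its values were seen, and in HL-60 it fell by 0.21 with NTX-301 (limma adjusted p 0.00195). Whether p53 had a part was not tested. In HL-60 6 of 12 were higher and 0 lower with DAC, and with NTX-301 3 were higher (2 after centring) and 4 lower (medians 0.12 and 0.014). The NTX-301 counts lie near the shares of all genes. NUPR1, GDF15, FGF21 and STC2 were in this list and not among the genes tested in either line. DDIT4 was the highest there with either drug (0.21 and 0.51), while ALDH1L2, a mitochondrial folate enzyme, fell by 0.48 with NTX-301 (adjusted p 4.28e-07).

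Among the 6 basic leucine zipper factors that can pair with ATF4 or act beside it, CEBPG fell in MOLM-13 by 0.25 with DAC and 0.28 with NTX-301, while ATF3 rose by 0.29 and 0.42 (limma adjusted p 0.00298 and 0.00016). ATF5 fell by 0.41 with NTX-301 in HL-60 (SE 0.026, adjusted p 4.07e-08), where 4 of the 6 were lower and 0 higher (median −0.21), against 2 lower and 1 higher with DAC (−0.013). In MOLM-13, 1 was lower with each drug, while 3 were higher with DAC and 2 with NTX-301 (2 and 1 after centring; medians 0.050 and 0.015). Of 12 genes of eIF2 phosphorylation and of the exchange factor eIF2B, 7 were lower with NTX-301 in each line, with 0 higher in HL-60 and 1 in MOLM-13, EIF2AK2, which encodes the kinase PKR (0.097, not called after centring at 0.067). The medians were −0.063 and −0.10. With DAC 3 were lower in HL-60 (2 after centring, near the share of all genes), 6 were lower in MOLM-13, and 0 were higher in either. The HL-60 count with NTX-301 was 4 without DMSO replicate 2 and 4 without NTX-301 replicate 2, and the 8 called with it in MOLM-13 became 5 without DMSO replicate 3, and 5 with quantile-normalized values. PPP1R15A, the stress-induced subunit that directs a phosphatase to eIF2, fell in HL-60 by 0.37 (DAC) and 0.30 (NTX-301, adjusted p 1.26e-05 and 2.68e-05).

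The other folate and glycine genes had calls in both directions. In MOLM-13, 9 of 15 were lower and 2 higher (1 after centring) with either drug (medians −0.13 and −0.099), and the mitochondrial folate carrier SLC25A32 fell by 0.36 with NTX-301. In HL-60, 7 of 15 were lower and 4 higher with NTX-301 (median −0.035), and 2 were lower and 2 higher with DAC (−0.0057), as in all genes. After centring the NTX-301 counts were 8 lower and 2 higher. MTHFD1L, which releases formate in mitochondria, fell with NTX-301 in HL-60 by 0.26 (SE 0.021, limma adjusted p 3e-07), and thymidylate synthase TYMS rose with it by 0.38 (SE 0.026, adjusted p 6.41e-08). The ATF6 and XBP1 arm of the unfolded protein response, which raises chaperones of the endoplasmic reticulum, was lower with NTX-301 in both lines, in 10 of 12 genes in HL-60 and 11 of 12 in MOLM-13, with 0 higher and medians of −0.16 and −0.22. SDF2L1, a chaperone of that compartment, fell by 0.53 and 0.33 (adjusted p 4.94e-07 and 0.000206). With DAC this arm was lower for 2 and higher for 5 of 12 genes in HL-60, and lower for 4 and higher for 1 in MOLM-13 (medians 0.042 and −0.080). After centring the MOLM-13 counts were 7 lower and 0 higher.

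**Figure D4:**
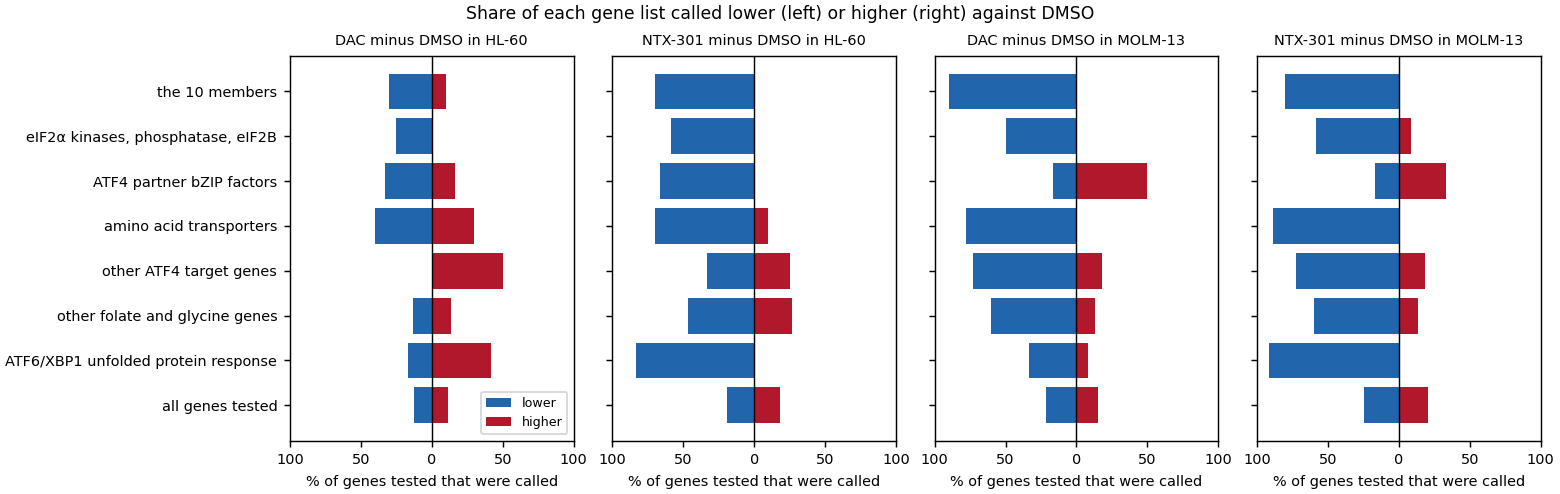
Share of each gene list called lower (blue, left) or higher (red, right) against DMSO at a limma adjusted p under 0.05, in percent of the genes tested, for each drug and line; the bottom bar gives all genes tested. In the MOLM-13 panels the bar of the 10 genes reaches 90% lower with DAC and 80% lower with NTX-301, against 21.2% and 24.8% of all genes.

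The genes whose profile was most like that of the group were ranked by Pearson's r with the mean z-score of the 10 genes over the 9 samples of a line, among genes with a mean value of at least 8. In MOLM-13 they were EIF3A (r = 0.993), MRM3, FKBP4, AARS1 and ERBB4 (r = 0.988), out of 10973 genes. In HL-60 they were SYNGR1 (r = 0.987), RCC1, DDX19B, RABL6 and ARPC1B (r = 0.982), out of 10330 genes. Pairs of members had a median r of 0.921 in MOLM-13, with 45 of 45 positive. Pairs with CHAC1 ran from 0.0462 to 0.512 in MOLM-13, and those with DDIT3 from 0.371 to 0.672. These 2 genes followed the other members less closely there. In HL-60 the median was 0.256, with 32 of 45 positive and −0.884 for ASNS with PSPH. The mean in HL-60 therefore joins members that did not share 1 profile. The 9 points are 3 treatments of 3 replicates, so r mainly follows the 3 group means and is a description only.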

How the data were processed

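RNA was measured by stranded total RNA sequencing in 18 samples of HL-60 and MOLM-13. The authors deposited 1 normalized log2 value per gene and sample; the method is not named, and the scale is read from the values. FastQC, Trimmomatic 0.38, HISAT2, StringTie and hg19 are named in the submitters' processing notes, with no role. The counting, annotation release and use of strand are not given in the sources used here. The 10 members and the lists were chosen with earlier results of these data known.

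A gene entered the test where 3 samples or more had a linear value of 1 or higher. Each line was fitted with limma 3.58.1 (R 4.3.3; group means, eBayes with trend, two-sided) on its 9 samples with 6 residual degrees of freedom, and differences between lines on all 18. Benjamini-Hochberg adjustment ran over every gene tested, with a threshold of 0.05. An exact permutation test of 3 against 3 cannot go below 0.1, so none was used. Named beyond the members were the highest and the lowest called gene of each list with groups apart, by line and drug against DMSO, of which a selection is given, and the 5 genes of most similar profile. Overlapping genes and copies were found by position and name in GENCODE v29. Alternatives were another filter, centring, quantile normalization, a pseudocount of 1, no trend, only the groups compared, a replicate block and leaving out each sample.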

Additional observations from a re-analysis of the deposited data

Results flagged for a closer look

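Effects of the drugs that differed between the lines by the test of the difference itself (limma, adjusted p under 0.05) are given here as values in MOLM-13 after subtracting those in HL-60. With DAC these were ATF4 (−0.27), ASNS (−0.61), PHGDH (−0.36), PSAT1 (−0.41), SHMT2 (−0.18), MTHFD2 (−0.20), DDIT3 (0.18) and TRIB3 (−0.24). With NTX-301 they were ATF4 (−0.12), ASNS (−0.51), PHGDH (−0.51), PSAT1 (−0.16), PSPH (−0.23), SHMT2 (−0.21), MTHFD2 (−0.20), CHAC1 (0.21), DDIT3 (0.17) and TRIB3 (−0.34). The positive values of CHAC1 and DDIT3, and the ATF4 value with NTX-301, each lost their call under some alternatives. Those positive values mark a smaller fall in MOLM-13 than in HL-60, or none that was called, and not a rise.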

How the results depend on the processing

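Of 80 results for single members (10 genes in 8 comparisons), 58 were called, and 49 of these kept their call and direction under every alternative run. Of the 22 not called, 17 stayed so. Over the 8 comparisons, the share of all genes called in either direction ran from 7.42% to 45.1%. The comparisons share samples, so the 80 results are not independent of each other. Centring each sample on its median turned PHGDH with NTX-301 in HL-60 to −0.018 against DMSO and −0.00301 against DAC, and the DAC difference of PSPH between the lines to −0.025. Quantile normalization turned CHAC1 from DAC to NTX-301 in MOLM-13 to −0.010. With each sample left out in turn, PHGDH with NTX-301 in HL-60 ranged from −0.021 to 0.036 against DMSO and from −0.0056 to 0.052 against DAC, and the PSPH value between the lines from −0.022 to 0.035. In MOLM-13 CHAC1 ranged from −0.077 to 0.015 with DAC, from −0.071 to 0.021 with NTX-301 and from −0.033 to 0.034 between the drugs, and ATF4 between the drugs from −0.012 to 0.049. None of these was called, and the cause was not tested. The 5 members lower with NTX-301 than with DAC in MOLM-13 became 2 to 5 with a sample left out. The depth behind the values is unknown, so counting error could not be given.

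Whether replicate numbers pair the samples is not settled. Deviations of same-numbered samples from their group means correlated between −0.0945 and 0.135 in HL-60 (over 0.1 in 4 of 9 pairs). In MOLM-13 they correlated between −0.206 and 0.0774 (0 of 9). No reference shows what paired samples would give, so this check cannot decide. With the replicate number as a block, the members called between the drugs in MOLM-13 were 3 in place of 5; the other 7 comparisons kept their counts within 1 gene.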
